A study of Homo sapiens with 18 samples.

Results

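The unfolded protein response genes described here were HSPA5, HSP90B1, DNAJB9, DNAJC3, XBP1, PDIA4, HERPUD1, SDF2L1, HYOU1 and CRELD2, 10 of the 19720 genes that could be named on the array. Every probe whose RefSeq identifier or symbol belongs to one of these genes was taken, which gave 11 probes: 2 for HSP90B1 and 1 for each of the other 9 genes. The brightest probe stands for a gene. Disulfiram (DSF), an inhibitor of aldehyde dehydrogenase used against alcohol dependence, was set beside 5-fluorouracil (5-FU), a pyrimidine analogue that blocks thymidylate synthesis, in tumor-initiating hepatocellular carcinoma (HCC) cells. Huh1 and Huh7 are established human HCC lines, and the cells on the arrays were EpCAM+ cells, which carry that surface protein, isolated by fluorescence-activated sorting. Each line was left as a control or exposed for 48 hours to DSF at 0.1 µM or to 5-FU at 1 µM, which makes 6 groups of 3 arrays, 18 arrays in all, from independent experiments. In the study's methods DSF is written with copper chloride, and what the control cells received is not given in the sources used here, so that DSF and copper cannot be told apart. The labels name treatment before sorting and the design text speaks of purified cells that were treated, so that the order of the 2 steps is not settled here.

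Proteins that enter the secretory pathway fold in the endoplasmic reticulum (ER) with the help of chaperones and of enzymes that form disulfide bonds. When unfolded proteins build up there, the sensors IRE1 (ERN1), ATF6 and PERK (EIF2AK3) start the unfolded protein response: IRE1 splices the mRNA of XBP1, cleaved ATF6 enters the nucleus, and PERK slows translation and favors synthesis of ATF4. XBP1 and ATF6 bind ER stress response elements in the promoters of chaperone and degradation genes, and ATF4 induces CHOP (DDIT3). Hepatocytes secrete large amounts of protein and rely on this system.

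All 10 genes were well above background on all 18 arrays, and no spot was saturated. A level below is the log2 intensity of the probe minus the 75th percentile of its array, and levels of different probes are not set against each other. A gene was called when its adjusted p in limma, over 29894 probes, was under 0.05. Between 59.87% and 71.1% of the 42405 probes per array were well above background. The arrays lay on 3 slides: the first held the Huh1 control and 5-FU arrays with 2 Huh1 DSF arrays, the second held the third Huh1 DSF array, the Huh7 control and 5-FU arrays and 1 Huh7 DSF array, and the third, scanned on another day, held the other 2 Huh7 DSF arrays and nothing else. A fit with the slide as a fixed block therefore takes every Huh7 DSF change from the 1 array on the second slide. All 7 markers of EpCAM+ hepatoblast-like tumor cells (EPCAM, AFP, GPC3, KRT19, PROM1, CD24 and ALB) were well above background on every array. After DSF 2 of these 7 markers rose and 5 fell in Huh1 cells and 1 rose and 4 fell in Huh7 cells. Beside this, 23.9% of all tested probes rose and 20.3% fell in the Huh1 line, and 27.3% rose and 19.4% fell in Huh7. The markers that fell in both lines included GPC3 (-1.37 and -0.91), EPCAM (-0.66 and -0.50) and ALB (-0.25 and -0.33). The summed linear level of the 7 ran from 513 to 564 in Huh1 controls. In that line it ran from 424 to 453 after DSF and from 451 to 484 after 5-FU. In Huh7 cells it ran from 813 to 836 in controls, from 703 to 821 after DSF and from 639 to 805 after 5-FU. The Huh7 control and DSF ranges thus overlapped. ALB, at a log2 level of 8.62 in Huh1 controls, made up most of the sum there. After 5-FU 3 of the 7 markers rose and 2 fell in Huh1 cells, and 1 rose and 2 fell in Huh7 cells. Of all tested probes 22.2% were called higher and 26.0% lower after 5-FU in Huh1 cells, and 27.3% and 29.7% in Huh7 cells. ALB read -0.34 and -0.35 after 5-FU, or 0.49 and 0.64 with spike-in scaling. The summed linear level of 6 markers of EpCAM-negative mesenchymal-like cells ran from 71.9 to 79.1 in Huh1 controls, from 86.2 to 90.0 after DSF and from 51.3 to 55.4 after 5-FU. In Huh7 cells that sum ran from 53.2 to 55.3 in controls, from 82.0 to 87.8 after DSF and from 62.9 to 73.5 after 5-FU, with THY1 well above background on no array. VIM, at a log2 level of 5.85 in Huh1 controls and 6.23 after DSF, made up most of that sum. Of the 5 markers tested, 1 rose (VIM, 0.38) and 2 fell in Huh1 cells after DSF, among them FN1 at -0.80, with a median of -0.14, while by limma 4 rose and 0 fell in Huh7 cells, also 0 at an unadjusted p under 0.05. After 5-FU 1 rose and 2 fell in Huh1 cells and 3 rose and 1 fell in Huh7 cells, CD44 reading 0.47 and 0.61 and FN1 -0.29 and -0.50, the last 2 being 0.54 and 0.48 with spike-in scaling. CD44 was near background in Huh7 cells, well above it on 1 control array and 2 5-FU arrays. Of 5 non-hepatic markers the sum stayed between 0.230 and 0.643 on all arrays, with COL1A2 well above background on no Huh1 array. The part of these cell types in the changes below was not tested, and in sorted bulk samples fewer cells of a type and less RNA per cell cannot be told apart.

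The upstream sequences of 6 genes are printed because they differ in the ER stress elements they hold. Whether these elements bear on the changes described below was not tested. The sequences are RefSeq promoter windows on GRCh38.p14, cut to the 250 bases before the gene's start. They are written 5′ to 3′ on the gene's strand, with the matched elements in capitals. HSPA5 lies on the minus strand at chr9:125241344-125241593 and HYOU1 on the minus strand at chr11:119057206-119057455. SDF2L1 is on the plus strand at chr22:21642052-21642301, CRELD2 on the plus strand at chr22:49918384-49918633, HERPUD1 on the plus strand at chr16:56931892-56932141, and DNAJB9 on the plus strand at chr7:108569624-108569873.
HSPA5: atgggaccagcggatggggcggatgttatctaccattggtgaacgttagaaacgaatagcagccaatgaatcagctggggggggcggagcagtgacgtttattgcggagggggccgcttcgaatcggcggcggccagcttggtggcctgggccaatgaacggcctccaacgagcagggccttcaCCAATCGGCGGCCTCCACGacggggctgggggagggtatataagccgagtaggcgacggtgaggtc
HYOU1: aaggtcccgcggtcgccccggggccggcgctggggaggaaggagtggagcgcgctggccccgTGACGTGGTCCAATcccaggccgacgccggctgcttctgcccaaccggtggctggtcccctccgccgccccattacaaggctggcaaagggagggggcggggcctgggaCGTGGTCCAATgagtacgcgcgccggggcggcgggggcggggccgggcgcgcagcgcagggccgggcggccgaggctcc
SDF2L1: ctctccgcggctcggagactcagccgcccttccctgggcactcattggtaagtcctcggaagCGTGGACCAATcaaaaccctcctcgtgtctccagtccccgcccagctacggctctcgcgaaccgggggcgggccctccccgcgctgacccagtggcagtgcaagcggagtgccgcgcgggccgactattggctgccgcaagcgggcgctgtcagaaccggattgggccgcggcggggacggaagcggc
CRELD2: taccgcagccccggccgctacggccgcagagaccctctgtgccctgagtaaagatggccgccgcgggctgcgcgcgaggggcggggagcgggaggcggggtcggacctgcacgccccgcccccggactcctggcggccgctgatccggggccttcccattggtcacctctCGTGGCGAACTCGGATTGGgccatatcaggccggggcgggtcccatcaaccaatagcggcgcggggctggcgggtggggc
HERPUD1: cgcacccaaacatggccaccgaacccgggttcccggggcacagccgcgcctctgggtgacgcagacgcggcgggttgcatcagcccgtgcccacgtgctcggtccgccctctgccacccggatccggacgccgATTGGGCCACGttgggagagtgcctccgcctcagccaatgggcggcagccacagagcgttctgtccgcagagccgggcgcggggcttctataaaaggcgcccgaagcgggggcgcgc
DNAJB9: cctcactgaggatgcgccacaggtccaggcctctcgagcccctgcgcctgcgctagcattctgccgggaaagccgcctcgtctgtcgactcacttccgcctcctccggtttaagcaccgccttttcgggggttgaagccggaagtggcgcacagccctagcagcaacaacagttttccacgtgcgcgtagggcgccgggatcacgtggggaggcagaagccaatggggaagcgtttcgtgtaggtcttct

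Both strands were searched for the ER stress response element ERSE (CCAAT, then 9 bases of any kind, then CCACG), for ERSE-II (ATTGG, then 1 base of any kind, then CCACG) and for the unfolded protein response element UPRE (TGACGTGG or TGACGTGA). ERSE occurred in 27 of 35116 promoter windows (0.0769%) and ERSE-II in 19 of them (0.0541%), while TGACGTGG was found in 256 (0.729%) and TGACGTGA in 158 (0.45%). Among the 12 windows of the 10 genes, ERSE was present in HSPA5, HSP90B1, CRELD2 and XBP1, and ERSE-II in HERPUD1, SDF2L1 and HYOU1. HYOU1 held ERSE-II at -185 to -175 and again at -79 to -69, counted from the gene's start, and the first of these overlapped a UPRE at -188 to -181. HSP90B1 held ERSE at -194 to -176 and, on the other strand, at -89 to -71 of its plus-strand window chr12:103930160-103930459. XBP1 held 1 ERSE at -52 to -34 of its minus-strand window chr22:28800520-28800819. The matches of these last 2 genes are written in capitals throughout.
HSP90B1 first: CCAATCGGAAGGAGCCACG
HSP90B1 second: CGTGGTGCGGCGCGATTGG
XBP1: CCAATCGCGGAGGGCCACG

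No ERSE, ERSE-II or UPRE lay in the windows of DNAJB9, DNAJC3 and PDIA4. The short core CCACG, which is part of both longer elements, was in all 12 windows but also in 38.1% of all promoter windows. A match is a description of the sequence, not of binding, and the lack of one says only that these letters are not in this window.

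The first comparison asked how DSF changed the 10 genes in EpCAM+ cells. In Huh1 cells 5 genes rose (HERPUD1, DNAJC3, DNAJB9, HSPA5 and HYOU1) and 2 fell (SDF2L1 and PDIA4), with 23.9% of all tested probes called higher and 20.3% called lower. In Huh7 cells 7 genes rose (CRELD2, DNAJC3, DNAJB9, HYOU1, HSP90B1, HERPUD1 and SDF2L1) and 0 fell, against 27.3% and 19.4% of all tested probes. At an unadjusted p under 0.05 in limma, 0 of the 10 genes were lower in Huh7 cells as well, and 8 were higher. The median change of the 10 genes was 0.16 in Huh1 cells and 0.38 in Huh7 cells on the log2 scale, beside 0.00 and 0.08 over all tested probes. DNAJB9, DNAJC3, HERPUD1 and HYOU1 were called higher in both lines, the last 2 not under every scaling. Within the slides that held both groups, the Huh1 changes of HERPUD1, DNAJC3 and DNAJB9 were 1.55, 1.00 and 0.82, and the Huh7 changes of CRELD2, DNAJC3 and DNAJB9, with 1 DSF array, were 1.13, 0.87 and 0.92. With arrays scaled on the 6 spike-in probes the split of higher to lower calls was 4 to 0 in Huh1 cells and 3 to 0 in Huh7 cells, and in Huh1 cells it was 5 to 1 with quantile and 3 to 3 with median scaling. Over all tested probes the spike-in split was 7081 to 2419 in Huh1 cells and 3241 to 6123 in Huh7 cells. In Huh1 cells that of all probes was 6473 to 7153 with quantile and 4750 to 9635 with median scaling.

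**Figure D1:**
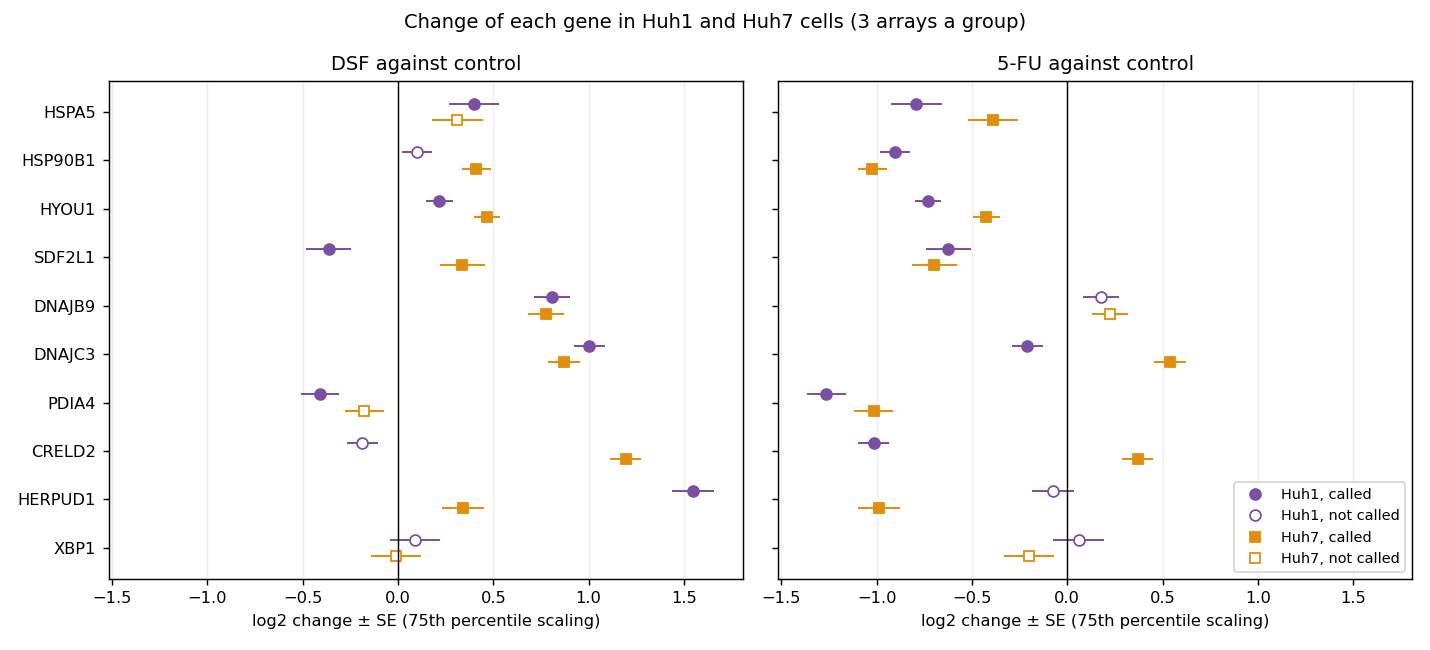
Log2 change against control (x axis, point ± SE from limma) of the 10 genes in Huh1 (circles) and Huh7 cells (squares), after DSF on the left and 5-FU on the right, with filled symbols for called genes. HERPUD1 in Huh1 cells (1.55) and CRELD2 in Huh7 cells (1.19) lie farthest to the right after DSF, and PDIA4 lies at -1.26 and -1.01 after 5-FU. The 5-FU values are those of 75th percentile scaling, and most of them lie at or above 0 under spike-in scaling.

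HSPA5 encodes BiP, the HSP70 chaperone of the ER lumen that also binds and restrains the stress sensors. Its Huh1 levels were 1.06, 1.15 and 1.06 on the control arrays, 1.456, 1.501 and 1.514 after DSF and 0.22, 0.37 and 0.32 after 5-FU. In Huh7 cells it read 1.40, 1.33 and 1.41 in controls, 1.75, 1.69 and 1.62 after DSF and 0.54, 1.27 and 1.16 after 5-FU. All DSF arrays were above all control arrays of their line and all 5-FU arrays below them, and the first Huh7 5-FU array was far lower than the other 2 of its group. DSF raised HSPA5 1.32-fold in Huh1 cells (log2 change 0.40, SE 0.13, limma adjusted p = 0.0252), while the change of 0.31 in Huh7 cells was not called (adjusted p = 0.0687) unless Huh7 5-FU array 1 or 2 was left out, arrays were weighted (0.27) or only the compared groups were used. The Huh1 call was lost without Huh1 control array 1 (0.38) or 3 (0.38), without Huh1 DSF array 2 (0.39) or 3 (0.39), with the slide as a fixed block (0.39) and with median scaling (0.23). 5-FU lowered it by 0.79 in Huh1 cells (adjusted p = 0.000221) and by 0.39 in Huh7 cells (adjusted p = 0.0218), and under spike-in scaling both changes turned positive (0.03 and 0.60). The Huh7 change was -0.17 without Huh7 5-FU array 1 and -0.22 with array weights, and its call was lost without Huh7 control array 1 (-0.38) or 3 (-0.38) with only the compared groups (adjusted p = 0.143) and under the study's selection rule.

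HSP90B1 encodes GRP94, the HSP90 chaperone of the ER. Its levels in Huh1 cells were 6.11, 6.05 and 6.02 in controls, 6.13, 6.15 and 6.19 after DSF and 5.14, 5.16 and 5.16 after 5-FU. The Huh7 arrays gave 7.16, 7.09 and 7.17 in controls, 7.45, 7.60 and 7.60 after DSF and 5.92, 6.27 and 6.17 after 5-FU. Each treated group lay apart from its control group, though in Huh1 cells the DSF and control arrays were separated by little. DSF raised HSP90B1 1.33-fold in Huh7 cells (0.41, SE 0.08, adjusted p = 0.000644), and the Huh1 change of 0.10 was not called (adjusted p = 0.328) and was -0.07 under median scaling. The Huh7 rise was 0.27 with quantile scaling and 0.24, not called (adjusted p = 0.116), with spike-in scaling. 5-FU lowered it by 0.90 in Huh1 cells and by 1.02 in Huh7 cells, values that were -0.08 and -0.04 and not called under spike-in scaling. The second HSP90B1 probe gave 0.25 (adjusted p = 0.0506) and 0.59 after DSF and -0.67 and -0.92 after 5-FU, and its Huh7 DSF change within the slide that held controls was 0.28.

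HYOU1 encodes the large HSP70-like chaperone ORP150, which also exchanges nucleotide on BiP. Huh1 control arrays read -0.57, -0.51 and -0.54, DSF arrays -0.37, -0.42 and -0.18, and 5-FU arrays -1.37, -1.23 and -1.21. Huh7 control arrays read 0.16, 0.14 and 0.13, DSF arrays 0.68, 0.57 and 0.57, and 5-FU arrays -0.32, -0.32 and -0.20. No array of a treated group overlapped its controls in either line. HYOU1 rose 1.16-fold in Huh1 cells (0.22, SE 0.07, adjusted p = 0.02) and 1.38-fold in Huh7 cells (0.47, adjusted p = 8.74e-05) after DSF. Without Huh1 control array 1 (0.20), without Huh1 DSF array 3 (0.14), with the slide as a fixed block (0.14), with only the compared groups, with median scaling (0.04, adjusted p = 0.711) or with spike-in scaling (0.35) the Huh1 call was lost. The Huh7 call was lost with spike-in scaling (0.29). After 5-FU it fell by 0.73 in Huh1 cells and by 0.42 in Huh7 cells, and these changes were 0.10 and 0.56 under spike-in scaling.

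**Figure D2:**
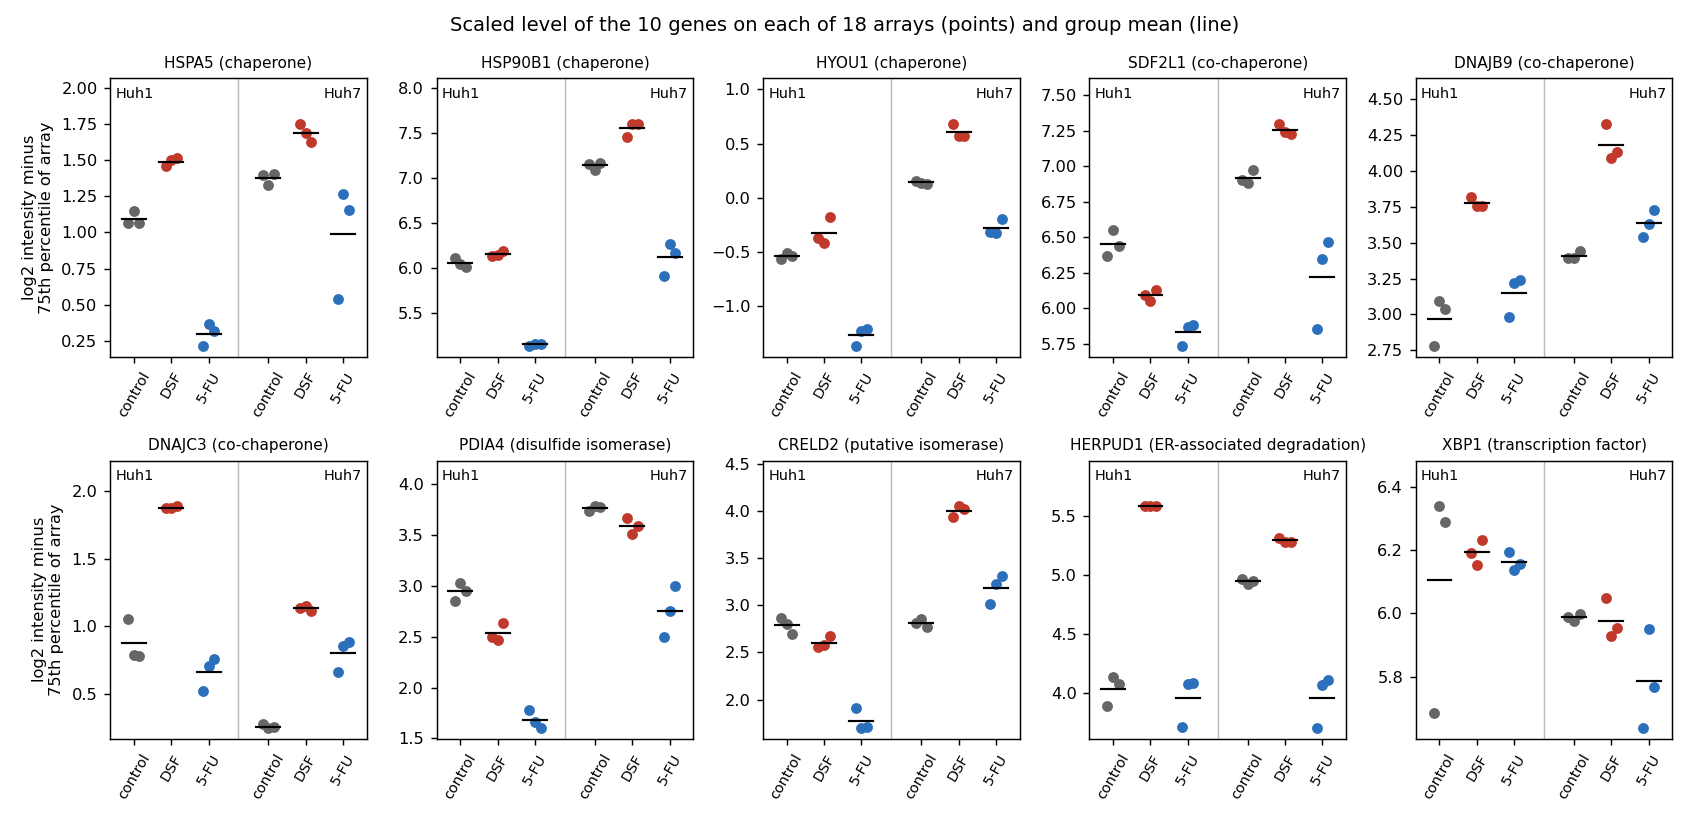
Level of each of the 10 genes (y axis, log2 intensity minus the 75th percentile of the array) on each of the 18 arrays, with a point per array, a line at the group mean, Huh1 cells on the left of each panel and Huh7 cells on the right. HERPUD1 stands highest in Huh1 DSF cells (5.58), CRELD2 in Huh7 DSF cells (4.01), and the XBP1 groups overlap their neighbors in level.

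Of the co-chaperones, SDF2L1 is an ER protein that works in a complex with ERdj3 and BiP. Huh1 levels were 6.37, 6.55 and 6.44 in controls, 6.09, 6.05 and 6.13 after DSF and 5.74, 5.87 and 5.88 after 5-FU. Huh7 levels were 6.91, 6.88 and 6.97 in controls, 7.30, 7.24 and 7.23 after DSF and 5.85, 6.35 and 6.47 after 5-FU. The DSF arrays thus lay below the controls in Huh1 cells and above them in Huh7 cells, with no overlap in either line. SDF2L1 fell by 0.36 in Huh1 cells after DSF (SE 0.12, adjusted p = 0.0208) and rose 1.26-fold in Huh7 cells (0.34, adjusted p = 0.0292). The Huh1 call was lost without Huh1 control array 2 (-0.32) or Huh1 DSF array 2 (-0.34) and with quantile (-0.30) or spike-in scaling (-0.23). The Huh7 call was lost without Huh7 control array 1 (0.33) or 2 (0.32), without any 1 of the Huh7 DSF arrays (0.32 to 0.35), with quantile (0.20), median (0.32) or spike-in scaling (0.16) and under the study's selection rule. With the slide as a fixed block, which leaves 1 Huh7 DSF array, the Huh7 change was 0.38. After 5-FU it fell by 0.62 and by 0.70 in the 2 lines, values of -0.31 and -0.29 with quantile and 0.20 and 0.29 with spike-in scaling, none of these 4 called.

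DNAJB9, also called ERdj4, is a J-domain protein that brings BiP to IRE1 and to clients of degradation. Its levels in Huh1 cells were 2.78, 3.09 and 3.04 in controls, 3.82, 3.76 and 3.76 after DSF and 2.98, 3.22 and 3.24 after 5-FU. In Huh7 cells they were 3.39, 3.39 and 3.45 in controls, 4.33, 4.09 and 4.13 after DSF and 3.54, 3.63 and 3.73 after 5-FU. DSF arrays stood above every control and 5-FU array of their line, and the 5-FU and control arrays overlapped in Huh1 cells. DSF raised DNAJB9 1.75-fold in Huh1 cells (0.81, SE 0.09, adjusted p = 9.59e-06) and 1.71-fold in Huh7 cells (0.77, adjusted p = 1.53e-05). The 5-FU changes of 0.18 and 0.22 were not called by limma (adjusted p = 0.139 and 0.0558) and were 1.00 and 1.21, both called, under spike-in scaling. Without Huh1 5-FU array 1 (0.26), with quantile scaling (0.24) or with array weights (0.20) the Huh1 change after 5-FU was called. The Huh7 change was called without Huh7 5-FU array 1, at 0.27, and at its full value of 0.22 when Huh1 control array 1, Huh1 5-FU array 1 or Huh7 DSF array 1 was left out.

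DNAJC3 encodes p58IPK, a J-domain co-chaperone of BiP first known as an inhibitor of the kinase PKR. The Huh1 controls read 1.05, 0.79 and 0.78, the DSF arrays 1.87, 1.87 and 1.89, and the 5-FU arrays 0.53, 0.71 and 0.76. The Huh7 controls read 0.28, 0.25 and 0.26, the DSF arrays 1.14, 1.15 and 1.11, and the 5-FU arrays 0.67, 0.86 and 0.88. DSF arrays were apart from controls in both lines, and 5-FU arrays were above the controls in Huh7 cells and just below them in Huh1 cells. DNAJC3 rose 2.00-fold in Huh1 cells (1.00, SE 0.08, adjusted p = 3.87e-07) and 1.83-fold in Huh7 cells (0.87, adjusted p = 1.5e-06) after DSF. After 5-FU it rose 1.45-fold in Huh7 cells (0.54, adjusted p = 5.8e-05) and fell by 0.21 in Huh1 cells (adjusted p = 0.0487). That last call held in only 5 of the 18 analyses that left out 1 array, with -0.12 without Huh1 control array 1 and -0.14 without Huh1 5-FU array 1, and under spike-in scaling the Huh1 change was 0.62.

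PDIA4 encodes ERp72, a protein disulfide isomerase. Its Huh1 levels were 2.85, 3.03 and 2.95 in controls, 2.50, 2.47 and 2.64 after DSF and 1.78, 1.66 and 1.60 after 5-FU. Its Huh7 levels were 3.73, 3.79 and 3.78 in controls, 3.66, 3.51 and 3.59 after DSF and 2.50, 2.75 and 3.00 after 5-FU. The order in each line was control, DSF and 5-FU from high to low, with no array of 1 group inside the range of another. PDIA4 fell by 0.41 in Huh1 cells after DSF (SE 0.10, adjusted p = 0.0047), a call lost with spike-in scaling (-0.28), and its change of -0.18 in Huh7 cells was not called (adjusted p = 0.168) unless arrays were weighted or only the compared groups were used. 5-FU lowered it by 1.26 in Huh1 cells, which is 2.40-fold (adjusted p = 3.77e-07), and by 1.01 in Huh7 cells (adjusted p = 1.08e-06). Under spike-in scaling the 5-FU change stayed below 0 and called in Huh1 cells (-0.44) and was -0.03, not called, in Huh7 cells.

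CRELD2 is a putative disulfide isomerase of the ER induced by ER stress. In Huh1 cells the control arrays gave 2.87, 2.81 and 2.70, the DSF arrays 2.56, 2.58 and 2.67 and the 5-FU arrays 1.92, 1.70 and 1.71. In Huh7 cells the control arrays gave 2.82, 2.85 and 2.77, the DSF arrays 3.94, 4.06 and 4.02 and the 5-FU arrays 3.02, 3.22 and 3.31. The controls of the 2 lines overlapped, and all treated arrays lay below their own controls in Huh1 cells and above them in Huh7 cells. CRELD2 rose 2.29-fold in Huh7 cells after DSF (1.19, SE 0.08, adjusted p = 7.84e-08) against an uncalled -0.19 in Huh1 cells (adjusted p = 0.0798), which was called with median scaling (-0.36), with array weights (-0.15) and without Huh7 5-FU array 1. After 5-FU it fell by 1.02 in Huh1 cells (2.02-fold lower, adjusted p = 3.65e-07) and rose 1.29-fold in Huh7 cells (0.37, adjusted p = 0.00138). Under spike-in scaling these 5-FU changes were -0.19, not called, and 1.36.

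HERPUD1 encodes a ubiquitin-like membrane protein of the ER that helps assemble the degradation complex. Its Huh1 levels ran 3.89, 4.13 and 4.08 in controls, 5.58, 5.58 and 5.58 after DSF and 3.71, 4.07 and 4.08 after 5-FU. Its Huh7 levels ran 4.96, 4.92 and 4.95 in controls, 5.31, 5.28 and 5.28 after DSF and 3.70, 4.06 and 4.11 after 5-FU. The Huh1 DSF arrays were the highest of all 18, Huh1 5-FU arrays fell within the range of their controls or just below it, and Huh7 5-FU arrays were clear of theirs. HERPUD1 rose 2.93-fold in Huh1 cells after DSF (1.55, SE 0.11, adjusted p = 1.06e-07), the largest change of the 10 genes in that comparison, and 1.27-fold in Huh7 cells (0.34, adjusted p = 0.0202). The Huh7 rise lost its call with quantile (0.23, adjusted p = 0.115) or spike-in scaling (0.17, adjusted p = 0.395) and without Huh7 control array 2 (0.33). With the slide as a fixed block, which leaves 1 Huh7 DSF array, the rise was 0.37. After 5-FU it fell by 0.99 in Huh7 cells (adjusted p = 2.95e-06), a change of 0.00 under spike-in scaling, and the Huh1 value of -0.08 was not called (adjusted p = 0.601) and was 0.75 and called under that scaling.

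XBP1 is the transcription factor whose mRNA IRE1 splices, and the array probe does not tell the spliced from the unspliced form. Huh1 arrays read 5.68, 6.34 and 6.29 in controls, 6.19, 6.15 and 6.23 after DSF and 6.20, 6.14 and 6.16 after 5-FU. Huh7 arrays read 5.987, 5.975 and 5.999 in controls, 6.05, 5.93 and 5.95 after DSF and 5.64, 5.95 and 5.77 after 5-FU. Only the Huh7 5-FU arrays lay apart from their controls, and the first Huh1 control array was far below the other 2. The changes of XBP1 after DSF were 0.09 in Huh1 cells (SE 0.13, adjusted p = 0.625) and -0.01 in Huh7 cells (adjusted p = 0.956), and after 5-FU they were 0.06 (adjusted p = 0.748) and -0.20 (adjusted p = 0.212), none of them called by limma. Without Huh1 control array 1 the Huh1 changes were -0.12 and -0.15, and the Huh7 change after 5-FU was called at the same -0.20, while under spike-in scaling the 5-FU changes were 0.88 and 0.79, both called, and under quantile scaling 0.37 (called) and 0.14.

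5-FU and DSF share the control arrays of each line, so that their changes are given side by side and not as separate lines of evidence. After 5-FU, 0 of the 10 genes rose and 7 fell in Huh1 cells (HSPA5, HSP90B1, HYOU1, SDF2L1, DNAJC3, PDIA4 and CRELD2), with 22.2% of all tested probes called higher and 26.0% called lower. At an unadjusted p under 0.05 in limma there were also 0 higher and 7 lower genes in Huh1 cells. In Huh7 cells 2 rose (DNAJC3 and CRELD2) and 6 fell (HSPA5, HSP90B1, HYOU1, SDF2L1, PDIA4 and HERPUD1), against 27.3% and 29.7% of all tested probes. The median change of the 10 genes was -0.68 in Huh1 cells and -0.41 in Huh7 cells, beside -0.03 and -0.05 over all tested probes. These directions depended on the scaling: 5-FU arrays had a 75th percentile that was higher against the spike-in probes than that of the controls, by 0.83 in Huh1 cells and by 0.99 in Huh7 cells. On the spike-in scale the median of all tested probes was 0.79 and 0.94, and the 10 genes split into 4 higher and 1 lower in Huh1 cells (median 0.15) and 6 higher and 0 lower in Huh7 cells (median 0.58). Of all 29894 tested probes 22339 were called higher and 367 lower there in Huh1 cells, and 22962 and 1035 in Huh7 cells. Relative to the median of all tested probes on that scale, the median of the 10 genes was thus again below it in both lines. With quantile scaling the split in Huh1 cells was 2 higher and 5 lower, beside 6907 and 6698 of all tested probes.

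**Figure D3:**
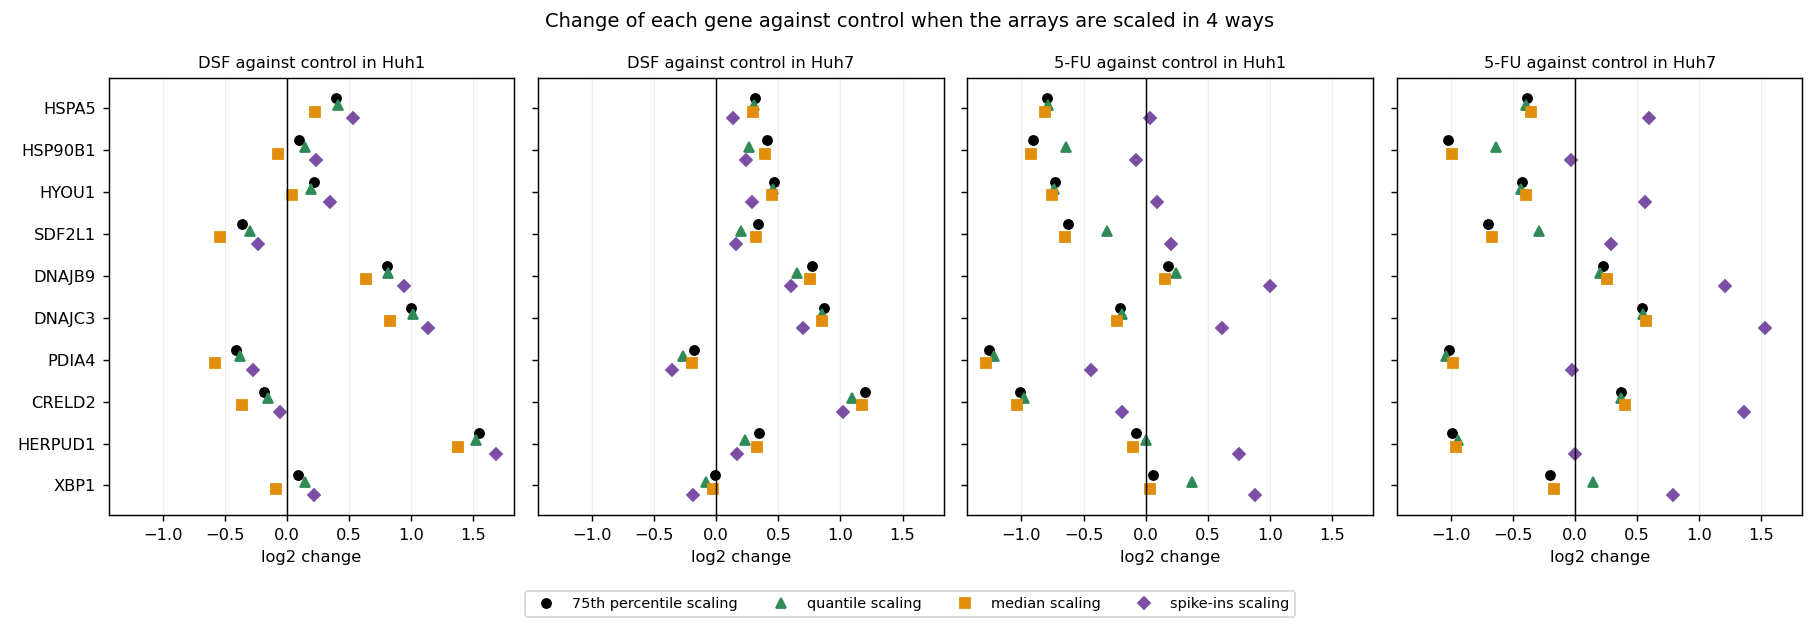
Log2 change against control (x axis) of the 10 genes in the 4 drug and line comparisons, with the arrays scaled on the 75th percentile, by quantiles, on the median or on the 6 spike-in probes. After 5-FU the spike-in values lie to the right of the other 3, so that HSPA5 in Huh7 cells reads -0.39 on the 75th percentile and 0.60 on spike-ins, while DNAJC3 and DNAJB9 lie to the right of 0 after DSF under all 4.

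Set directly against 5-FU, DSF cells were higher in 8 of the 10 genes in Huh1 cells and in 9 in Huh7 cells, and lower in 0 in either line, as they were at an unadjusted p under 0.05 in limma. Of all tested probes 28.7% were called higher and 20.6% lower in Huh1 cells, and 35.6% and 25.0% in Huh7 cells. The differences in Huh1 and Huh7 cells were 1.63 and 1.33 for HERPUD1, 1.19 and 0.70 for HSPA5, and 1.00 and 1.43 for HSP90B1. For the co-chaperones they were 1.21 and 0.33 for DNAJC3, 0.63 and 0.55 for DNAJB9, and 0.26 (not called, adjusted p = 0.0797) and 1.03 for SDF2L1. HYOU1 differed by 0.95 and 0.89, PDIA4 by 0.86 and 0.84, and CRELD2 by 0.83 and 0.82, while XBP1 differed by 0.03 and 0.19 and was not called. On the spike-in scale these directions did not all hold, with 4 genes higher and 2 lower in Huh1 cells and 1 higher (HSP90B1) and 5 lower in Huh7 cells, where the median of all tested probes was -0.61 and -1.04. Of all tested probes 1382 were called higher and 18725 lower there in Huh1 cells, and 826 and 24196 in Huh7 cells.

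Whether the 2 lines responded alike was tested by the interaction of drug and line. The DSF change was larger in Huh7 than in Huh1 cells for CRELD2 (difference 1.38, SE 0.12, limma adjusted p = 1.01e-06), SDF2L1 (0.70, SE 0.17, adjusted p = 0.00404) and HSP90B1 (0.31, SE 0.11, adjusted p = 0.0358). It was smaller in Huh7 cells for HERPUD1 (-1.21, SE 0.16, adjusted p = 4.1e-05). These 3 higher and 1 lower calls stand beside 21.1% and 19.2% of all tested probes. HYOU1 (0.25, adjusted p = 0.0555), PDIA4 (0.23), HSPA5 (-0.09), XBP1 (-0.10), DNAJC3 (-0.13) and DNAJB9 (-0.03) were not called. The HSP90B1 difference kept its call in 9 of the 18 analyses that left out 1 array and was 0.34 and not called (adjusted p = 0.0649) at the second probe. Under spike-in scaling CRELD2 (1.07) and HERPUD1 (-1.51) kept their calls, and SDF2L1 (0.39) and HSP90B1 (0.00) did not. For HSP90B1 the difference was 0.29 without Huh1 control array 1, Huh7 control array 2 or Huh7 DSF array 2 or 3, 0.30 to 0.32 without Huh1 control array 2 or Huh1 DSF array 1 or 2, and 0.32 to 0.33 without Huh7 control array 1 or 3, none of them called. With the slide as a fixed block, which leaves 1 Huh7 DSF array, it was 0.23. HYOU1 was called without Huh1 DSF array 3 (0.32) and without Huh1 5-FU array 1 (0.25). It read 0.40 with the slide as a fixed block, again with 1 Huh7 DSF array. Its difference was also called with quantile or median scaling, the slide as a random block, array weights and only the compared groups. The same held with only probes well above background on all 18 arrays, while the spike-in scale gave -0.057.

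The 5-FU change was larger in Huh7 than in Huh1 cells for CRELD2 (1.39, SE 0.12, adjusted p = 1.13e-06), DNAJC3 (0.75, SE 0.12, adjusted p = 0.000195) and HYOU1 (0.31, SE 0.10, adjusted p = 0.0241). HERPUD1 again went the other way (-0.91, SE 0.16, adjusted p = 0.00043). Of all tested probes 18.8% were called higher and 17.8% lower in this comparison. Without the first Huh7 5-FU array, the one low in HSPA5, 5 genes were called higher: HSPA5 (0.63) and PDIA4 (0.38) joined the other 3. On the spike-in scale HYOU1 was not called either (0.47), whereas CRELD2 (1.55), DNAJC3 (0.91) and HERPUD1 (-0.75) were. The HYOU1 call was lost without Huh1 control array 2 (0.29), Huh1 5-FU array 1 (0.26) or Huh7 5-FU array 3 (0.27).

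**Figure D4:**
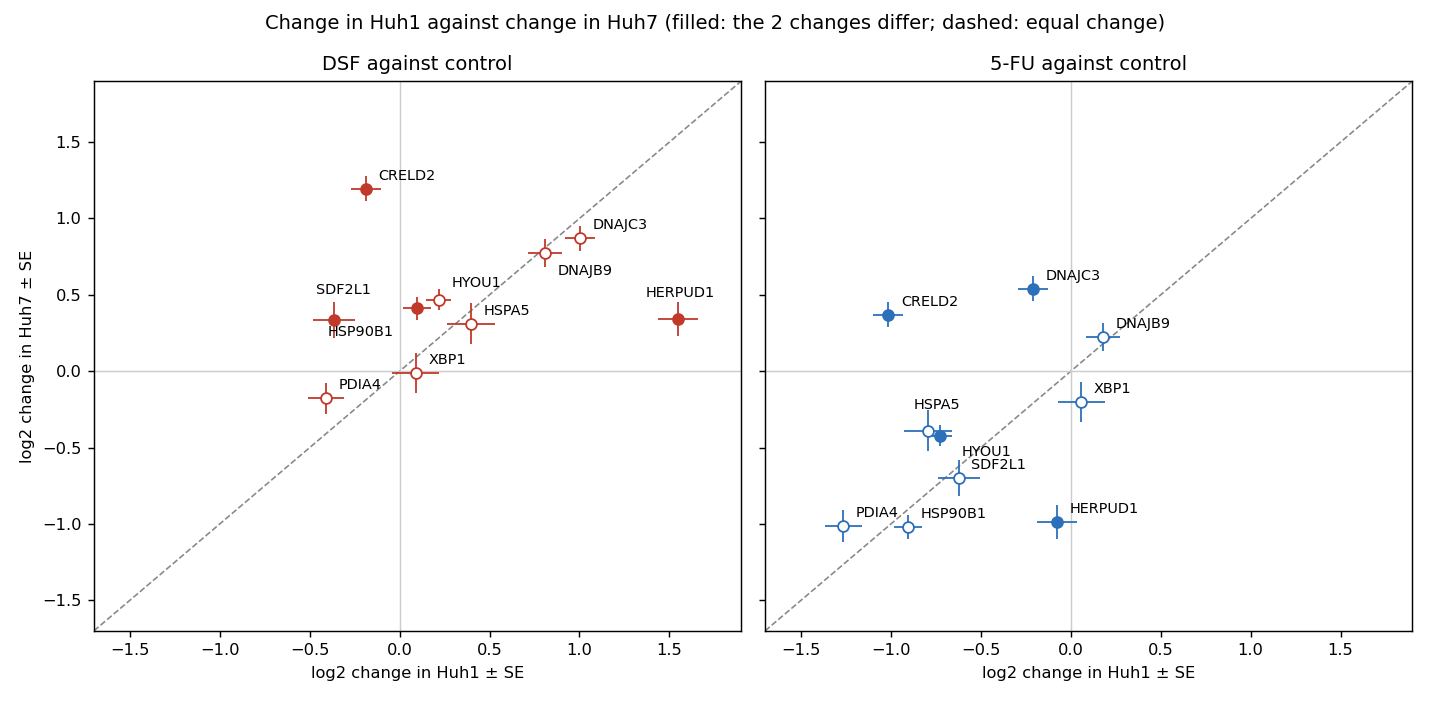
Log2 change in Huh1 cells (x axis) against log2 change in Huh7 cells (y axis), each ± SE, for DSF on the left and 5-FU on the right, with filled points where the 2 changes differed by limma and a dashed line of equal change. CRELD2 lies above the line (difference 1.38 for DSF and 1.39 for 5-FU) and HERPUD1 below it (-1.21 and -0.91).

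The control cells of the lines differed too. Huh7 controls were higher than Huh1 controls in 6 genes and lower in 1, with 34.5% and 36.2% of all tested probes called. HSP90B1 was 2.12-fold, HERPUD1 1.88-fold, PDIA4 1.76-fold, HYOU1 1.60-fold, SDF2L1 1.38-fold and DNAJB9 1.36-fold higher in Huh7 controls, and DNAJC3 was 1.53-fold lower. HSPA5 (0.29, adjusted p = 0.07), CRELD2 (0.02) and XBP1 (-0.12) were not called. Without Huh1 control array 1 XBP1 was called lower (-0.33), and HSPA5 was called at the same 0.29 without Huh7 5-FU array 1 or 2. The 2 control groups lay on different slides, and with the slide as a fixed block SDF2L1 was not called (0.41). HERPUD1 and DNAJC3 thus started from unequal levels in the lines, and after DSF their Huh1 level was the highest of the 6 groups.

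Across the 6 groups the mean level ranged 5.28-fold for HSP90B1, 4.69-fold for CRELD2, 4.24-fold for PDIA4 and 3.68-fold for HYOU1. It ranged 3.09-fold for HERPUD1, 3.06-fold for DNAJC3, 2.69-fold for SDF2L1, 2.62-fold for HSPA5, 2.32-fold for DNAJB9 and 1.33-fold for XBP1. HSPA5 and DNAJB9 were highest in Huh7 DSF cells, then in Huh1 DSF cells. Below these, HSPA5 went through Huh7 controls, Huh1 controls, Huh7 5-FU and Huh1 5-FU cells, with Huh1 controls and Huh7 5-FU cells overlapping. DNAJB9 went through Huh7 5-FU, Huh7 control, Huh1 5-FU and Huh1 control cells, the last 2 overlapping. HYOU1 and HSP90B1 were highest in Huh7 DSF and then Huh7 control cells and lowest in Huh1 5-FU cells. In between, HYOU1 fell from Huh7 5-FU to Huh1 DSF cells, which overlapped, and Huh1 controls, and HSP90B1 from Huh1 DSF to Huh7 5-FU cells and Huh1 controls, each overlapping its neighbor.

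SDF2L1 and PDIA4 shared an order from Huh1 controls through Huh7 5-FU and Huh1 DSF to Huh1 5-FU cells, in which the Huh7 5-FU arrays overlapped both neighbors. Above these, SDF2L1 was highest in Huh7 DSF and PDIA4 in Huh7 control cells. CRELD2 went from Huh7 DSF through Huh7 5-FU, Huh7 control and Huh1 control to Huh1 DSF and Huh1 5-FU cells, and only the 2 control groups overlapped. HERPUD1 went from Huh1 DSF through Huh7 DSF and Huh7 controls to Huh1 controls, Huh7 5-FU and Huh1 5-FU cells, with overlap among the last 3. DNAJC3 went from Huh1 DSF through Huh7 DSF cells to Huh1 controls, Huh7 5-FU and Huh1 5-FU cells, each of which overlapped the next, and was lowest in Huh7 controls. All 5 neighboring pairs of groups overlapped for XBP1.

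Over the 18 arrays HYOU1 and HSP90B1 were the most alike pair of the 10 genes, with a Pearson r of 0.97 between their levels. The median r over all 45 pairs was 0.63, 35 pairs were above 0, and the lowest r was -0.43, between XBP1 and CRELD2. Among 15843 other genes ranked by r with HSPA5, the members stood at r = 0.87 (HYOU1, rank 56), 0.85 (HSP90B1), 0.80 (HERPUD1, rank 230) and 0.79 (PDIA4, rank 289). SDF2L1 had an r of 0.76, CRELD2 of 0.75, DNAJB9 of 0.67, DNAJC3 of 0.40 and XBP1 of -0.03. The genes most like HSPA5 outside the list were BET1 (r = 0.955) and RTN4 (r = 0.955), then GPN3 (r = 0.95), ANKRD11 (r = 0.93) and GLI1 (r = 0.93). These values describe 18 points that fall into 6 groups and share the scaling of each array.

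Next to the 10 genes, other genes of the pathway were read from the same analysis, and their counts stand beside the shares of all tested probes called higher and lower: 23.9% and 20.3% after DSF in Huh1 cells, 27.3% and 19.4% after DSF in Huh7 cells, 22.2% and 26.0% after 5-FU in Huh1 cells and 27.3% and 29.7% after 5-FU in Huh7 cells. Of the 10 sensors and transcription factors 3 rose and 2 fell after DSF in each line, shares near those of all probes, and after 5-FU 3 rose and 3 fell in Huh1 cells and 3 rose and 5 fell in Huh7 cells. ERN1 rose by 1.94 in Huh1 and 1.22 in Huh7 cells after DSF and by 1.11 and 0.55 after 5-FU, with 2 of the 3 Huh1 control arrays well above background. ATF6 rose by 1.03 and 0.45 after DSF, and after 5-FU its values were -0.18 (not called) and -0.94 (called), which were 0.65 and 0.04 under spike-in scaling. EIF2AK3 gave 0.29 and -0.21 after DSF, neither called, and 0.05 (not called) and -0.56 (called) after 5-FU, the latter 0.43 under spike-in scaling. CREB3, an ER-bound transcription factor, read 0.79 (called) and 0.26 (not called) after DSF and rose by 0.57 and 0.95 after 5-FU. MBTPS1, the site-1 protease that cleaves ATF6, fell by 0.38 in Huh1 cells and by 0.16 in Huh7 cells after DSF. ATF6B, a relative of ATF6, fell by 0.74 and by 1.16 after 5-FU, which was 0.09 and -0.17, not called, on the spike-in scale.

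The 10 genes of the PERK, ATF4 and CHOP output split by line. In Huh1 cells 8 of them rose and 0 fell after DSF (median 1.05, with 0 lower at an unadjusted p under 0.05 in limma too), and 5 rose and 3 fell after 5-FU (median 0.57). In Huh7 cells 3 rose and 3 fell after DSF (median -0.07) and 1 rose and 7 fell after 5-FU (median -0.45), the latter being 6 and 2 under spike-in scaling. DDIT3, which encodes CHOP, read 0.35, 0.39 and 0.35 in Huh1 controls, 3.03, 2.96 and 3.16 after DSF and 2.21, 2.76 and 2.75 after 5-FU. In Huh7 cells it read 2.08, 2.09 and 2.12 in controls, 2.77, 2.48 and 2.48 after DSF and 1.97, 2.19 and 2.11 after 5-FU. The Huh1 controls were the lowest arrays, and every treated Huh1 array lay above every Huh7 control array. DDIT3 rose by 2.69 and 0.48 after DSF in Huh1 and Huh7 cells, and after 5-FU by 2.21 in Huh1 cells against -0.01 in Huh7 cells. PPP1R15A, a phosphatase subunit that restores translation, rose by 3.68 and 2.29 after DSF and by 2.16 and 1.06 after 5-FU, and ATF3 by 2.97 and 1.59 after DSF and by 2.34 in Huh1 cells after 5-FU, against 0.02 in Huh7 cells. DDIT4, an inhibitor of the growth kinase complex mTORC1, rose by 1.08 in Huh1 cells after DSF and fell by 1.70 in Huh7 cells. After 5-FU it fell by 0.41 in Huh1 cells (0.42 on the spike-in scale) and by 3.43 in Huh7 cells, where its log2 levels were 4.78, 4.82 and 4.79 in the controls and 1.204, 1.442 and 1.456 after 5-FU. ATF4 mRNA itself gave 0.19 (not called) and -0.22 (called) after DSF and fell by 0.45 and by 0.95 after 5-FU, which became 0.37 and 0.04 on the spike-in scale. In Huh7 controls 9 of the 10 genes of this list were higher than in Huh1 controls and 1 was lower.

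Among 21 other ER chaperones and folding factors 6 rose and 4 fell after DSF in Huh1 cells, and 10 rose and 6 fell in Huh7 cells. SERPINH1, the collagen chaperone HSP47, rose by 0.97 and 0.58, and DNAJB11, the BiP co-chaperone ERdj3, by 0.36 and 0.42. FKBP7 fell by 1.06 and 0.45. After 5-FU the counts were 3 rising and 7 falling in Huh1 cells and 7 and 9 in Huh7 cells, against 16 and 0 and 18 and 2 under spike-in scaling, and SIL1, a nucleotide exchange factor of BiP, read -0.94 and -1.38. CRELD1 read -1.01 and -1.67 and SERPINH1 1.22 and 0.69, and on the spike-in scale CRELD1 kept its call in Huh7 cells only (-0.69). Of 17 other disulfide isomerases and oxidases 4 rose and 8 fell in Huh1 cells and 1 rose and 6 fell in Huh7 cells after DSF. In Huh1 cells these became 4 and 0 on the spike-in scale and 3 and 11 under median scaling. After 5-FU 1 rose in each line and 10 and 9 fell, turning to 10 and 11 higher and 0 lower on the spike-in scale. PDIA5 read -0.20 (not called) and -0.87 after DSF and -0.97 and -1.10 after 5-FU, TXNDC11 -0.35 and -0.28 after DSF, the oxidase ERO1A -0.70 and -0.86 after 5-FU and PDIA6 -0.81 and -0.51 after 5-FU. On the spike-in scale ERO1A read 0.13 in each line after 5-FU and PDIA6 0.01 and 0.48, of which only the last was called.

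**Figure D5:**
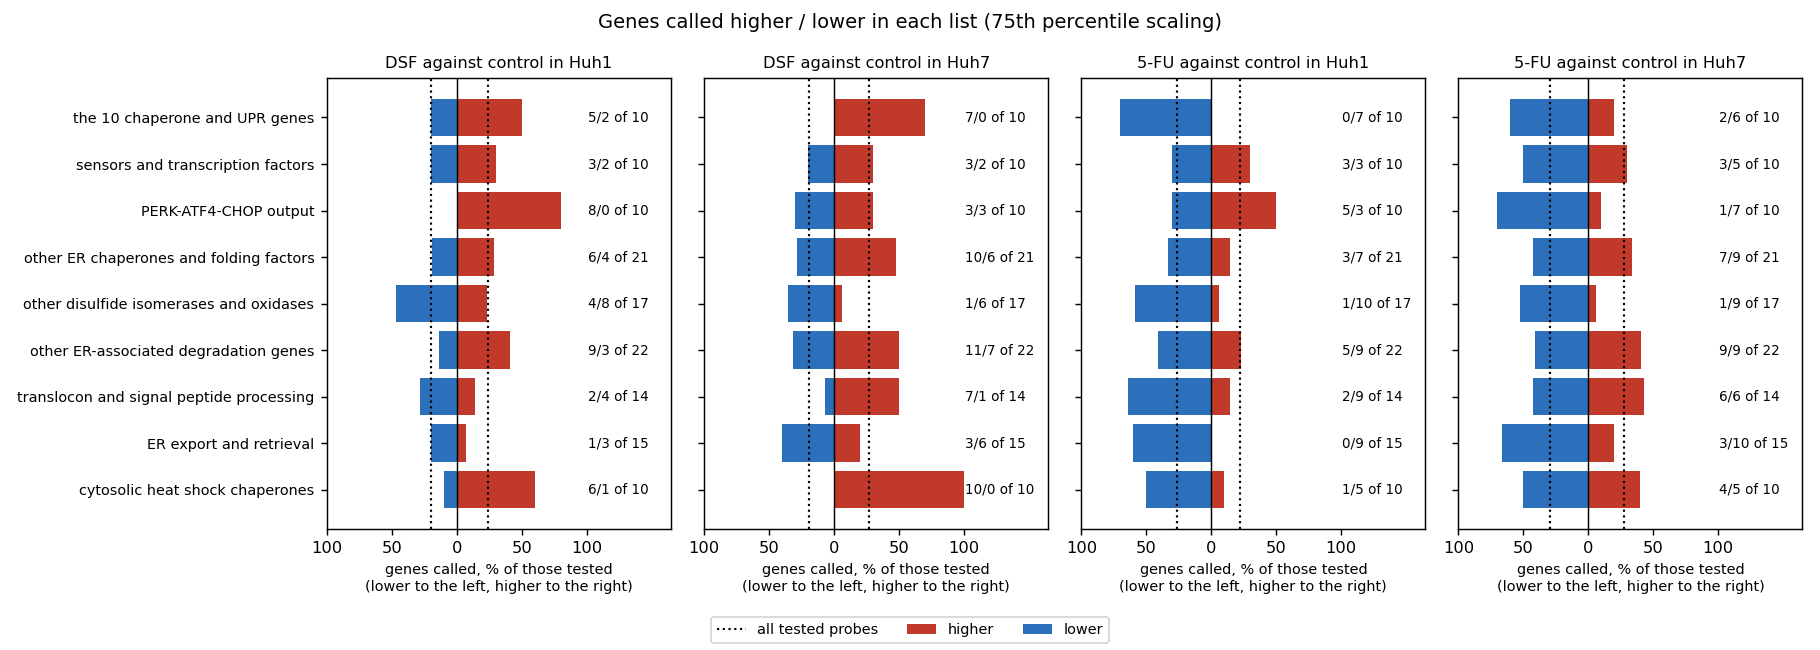
Share of each list's tested genes called higher (to the right) or lower (to the left) in the 4 drug and line comparisons under 75th percentile scaling, with the counts at the right and dotted lines at the share of all tested probes called in that direction. Of the 10 genes 5 and 2 were called after DSF in Huh1 cells and 7 and 0 in Huh7 cells, and all 10 cytosolic heat shock chaperones rose in Huh7 cells. The 5-FU bars turn mostly to higher under spike-in scaling, as do the calls over all tested probes.

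The degradation genes other than HERPUD1 numbered 22, of which 9 rose and 3 fell in Huh1 cells and 11 rose and 7 fell in Huh7 cells after DSF. Under median scaling the Huh1 split was 5 and 7. SYVN1, the ubiquitin ligase HRD1, rose by 0.53 and 0.31, and its partner SEL1L by 0.58 in either line. DERL2 rose by 0.30 and 0.82, and SELENOK, a selenoprotein of the same membrane, by 0.77 and 0.52. After 5-FU 5 and 9 of these genes rose and 9 and 9 fell. On the spike-in scale 19 and 21 rose and 0 fell, where 22339 and 22962 of all 29894 tested probes were called higher. FAF2 rose by 0.64 and 0.65 and SYVN1 by 0.49 and 0.44 after 5-FU, and EDEM2, which acts on glycans of misfolded proteins, fell by 0.52 and by 1.17 (0.30 and -0.18, not called, on the spike-in scale). The 14 translocon and signal peptide genes had 2 rising and 4 falling in Huh1 cells and 7 rising and 1 falling in Huh7 cells after DSF, among them SPCS3 at 0.30 and 0.72, SRPRB at 0.30 and 0.46 and SEC62 at -0.55 and -0.60. The spike-in scale gave 2 and 0 in Huh1 cells and 1 and 1 in Huh7 cells. After 5-FU they had 2 rising and 9 falling genes in Huh1 cells and 6 and 6 in Huh7 cells, against 8 and 0 and 13 and 0 on the spike-in scale. SEC62 (-0.74 and -0.84), SSR3 (-0.63 and -0.56) and SEC61B (-0.82 and -0.35) were lower after 5-FU in both lines, and all 3 were above 0 on the spike-in scale.

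The 15 genes of ER export and retrieval had 1 rising and 3 falling in Huh1 cells and 3 and 6 in Huh7 cells after DSF, with the coat protein genes SEC23A (-0.45 and -0.75) and SEC24A (-0.51 and -0.75) lower in both lines and MCFD2 (0.34 and 0.54) higher. After 5-FU 0 rose and 9 fell in Huh1 cells (0 higher also at an unadjusted p under 0.05 in limma) and 3 rose and 10 fell in Huh7 cells, and on the spike-in scale 9 and 10 rose and 0 and 1 fell. SEC24D fell by 1.11 and by 1.92 after 5-FU and was still lower in Huh7 cells on the spike-in scale (-0.94). KDELR2, a receptor that returns chaperones to the ER, fell by 0.94 and by 0.83, and SEC23A by 0.59 and by 0.65, changes not called on that scale. The cytosolic heat shock chaperones, which answer to misfolded protein outside the ER, were 10 genes of which 6 rose and 1 fell in Huh1 cells and 10 rose in Huh7 cells after DSF, with medians of 0.63 and 1.25. HSPA6 rose by 7.09 and 8.19 and HSPA1B by 1.00 and 2.13. HSPA1A rose by 1.63 in Huh1 cells and was at least 276-fold higher in Huh7 cells, where no control array was well above background. That bound sets the mean of the DSF arrays against a floor on each control array, which is the dimmest signal still well above background there, or the signal of the HSPA1A probe where this is higher. After 5-FU 1 of these 10 genes rose and 5 fell in Huh1 cells and 4 rose and 5 fell in Huh7 cells, or 7 rose and 0 fell in each line on the spike-in scale. HSPA1B (-0.88 and -0.82), HSP90AB1 (-0.70 and -0.90) and HSPA8 (-0.53 and -0.41) were lower after 5-FU in both lines, and on the spike-in scale HSPA8 was higher in Huh7 cells (0.57) and the other values were not called.

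The splits of these lists moved with the scaling also after DSF. Over all tested probes, the higher to lower split after DSF in Huh1 cells was 6473 to 7153 with quantile scaling. It was 4750 to 9635 with median and 7081 to 2419 with spike-in scaling. In Huh7 cells these splits were 7385 to 6468, 7385 to 5497 and 3241 to 6123. In Huh1 cells the sensors stood at 4 higher and 0 lower on the spike-in scale, the other chaperones at 6 and 1 there and at 3 and 8 with median scaling, and the other degradation genes at 7 and 1 on spike-ins. The translocon genes were 0 higher and 5 lower in Huh1 cells with median scaling, the export genes 2 and 3 with quantile, 0 and 4 with median and 1 and 1 with spike-in scaling, and the cytosolic heat shock chaperones 6 and 2 with median and 6 and 0 with spike-in scaling. In Huh7 cells spike-in scaling gave 1 higher and 1 lower sensor, 2 and 4 genes of the PERK, ATF4 and CHOP output, 2 and 6 other chaperones, 4 and 5 other degradation genes, and 0 and 6 among both the isomerases and the export genes. Median scaling gave 4 and 1 for the sensors, 3 and 2 for the PERK, ATF4 and CHOP output and 0 and 6 for the isomerases in Huh7 cells, and quantile scaling gave 0 and 9 for the isomerases and 3 and 1 for the translocon genes. After 5-FU the sensors were 8 higher and 0 lower in each line on the spike-in scale. Of all tested probes 22339 were called higher and 367 lower there in Huh1 cells, and 22962 and 1035 in Huh7 cells. The PERK, ATF4 and CHOP output in Huh1 cells was 10 and 0 on that scale and 6 and 2 with quantile scaling. Quantile scaling gave 3 higher and 4 lower cytosolic heat shock chaperones in Huh1 cells, 5 and 4 in Huh7 cells, and 3 and 9 isomerases in Huh7 cells after 5-FU. Over all tested probes it gave 6907 and 6698 in Huh1 cells and 8499 and 8699 in Huh7 cells after 5-FU.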

How the data were processed

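Total RNA from sorted EpCAM+ Huh1 and Huh7 cells was labeled with Cy3 and hybridized to one-color Agilent arrays, 3 per group and 18 in all. The authors deposited, per array, Agilent Feature Extraction output (version 10.7.1.1 per the submitters' processing notes; the study's methods state another version), whose processed spot intensity is background-subtracted, linear and not scaled between arrays. The authors also deposited a table of intensity normalized to the 75th percentile in GeneSpring, used here as an alternative. The log2 processed intensity was averaged over unflagged spots of a probe and the 75th percentile of its array was subtracted. Of 42405 probes 78 had an array with no unflagged spot and were left out, and 0 spots were saturated. The 29894 probes that exceeded background clearly in each array of 1 or more groups were fitted in 1 limma model of 6 groups with a shared spread, two-sided, and called at a Benjamini-Hochberg adjusted p under 0.05. The methods name the Mann-Whitney U test, which with 3 against 3 arrays cannot go below 0.1.

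RefSeq identifiers were held by 27099 probes. By such an identifier or a gene symbol, 25736 probes were named from a RefSeq table. That table is of another build than the array design, so array probes were named and not placed. The precision of a change is its SE, limited by 3 arrays per group. Groups and replicate numbers were read from the labels, and the study's methods give 3 independent experiments. The members and gene lists were chosen with earlier results of these data known. Named genes were all 10 members, up to 3 genes per list and drug with the largest mean change among those called alike in both lines, the sensors with ATF4 and CHOP, and the 5 genes most correlated with HSPA5. No gene list was tested as a set. The alternatives were 3 other scalings, filters, the mean over probes, slide or replicate number as a block, array weights, only the compared groups, the study's selection rule, each array left out, and a normexp background correction of the median signals (offset 50), which was chosen after seeing the data. Of the study's selection rule only the fold and p cutoffs were applied, to limma's unadjusted p. Its detection step and its classes of genes switched on or off were left out. The analysis was tested on simulated data. Tools were R 4.3.3, limma 3.58.1, Python 3.11.15, pandas 2.3.3, numpy 2.4.6 and matplotlib 3.10.9.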

Additional observations from a re-analysis of the deposited data

Results flagged for a closer look

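The results listed here were picked because the change differed between Huh7 and Huh1 cells by limma's interaction of drug and line, with all tested probes in the adjustment. Among the chaperone genes, the DSF change in Huh7 minus that in Huh1 cells was 1.38 for CRELD2 (adjusted p = 1.01e-06), 0.70 for SDF2L1 (adjusted p = 0.00404), 0.31 for HSP90B1 (adjusted p = 0.0358) and -1.21 for HERPUD1 (adjusted p = 4.1e-05). For 5-FU it was 1.39 for CRELD2 (adjusted p = 1.13e-06), 0.75 for DNAJC3 (adjusted p = 0.000195), 0.31 for HYOU1 (adjusted p = 0.0241) and -0.91 for HERPUD1 (adjusted p = 0.00043).

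Of the 10 sensors and transcription factors 2 had a called difference above 0 and 5 below 0 for DSF, and 0 and 3 for 5-FU. Of the 10 genes of the PERK, ATF4 and CHOP output 0 and 8 did for DSF, and 0 and 9 for 5-FU. The shares of all tested probes called above and below 0 were 21.1% and 19.2% for DSF and 18.8% and 17.8% for 5-FU. Among the genes named here (ERN1, EIF2AK3, ATF6, ATF4 and DDIT3), the differences that were called were below 0. DDIT3 differed by -2.21 for DSF (adjusted p = 8.16e-07) and by -2.22 for 5-FU (adjusted p = 9.05e-07). Its mean level was 0.36 in Huh1 controls and 2.09 in Huh7 controls. ATF6 differed by -0.58 (adjusted p = 0.00185) and -0.76 (adjusted p = 0.000243), ATF4 by -0.41 (adjusted p = 0.0113) and -0.50 (adjusted p = 0.00342), and EIF2AK3 by -0.51 (adjusted p = 0.0232) and -0.61 (adjusted p = 0.00897). ERN1 differed by -0.73 for DSF (adjusted p = 0.0178). The DSF and 5-FU values share the control arrays, and 2 of the 3 Huh7 DSF arrays lay alone on a slide, which cannot be told apart from a part of the Huh7 DSF values.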

How the results depend on the processing

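Of the 90 gene results, 10 genes in 9 comparisons, all 90 kept their direction and side of the threshold with the deposited normalized table, 88 without the filter, 85 with the normexp correction, 79 with the slide as a fixed block, 87 with it as a random block, 72 with array weights, 71 with quantile, 76 with median and 43 with spike-in scaling. DNAJB9 and DNAJC3 after DSF in both lines, HERPUD1 after DSF in Huh1 cells, CRELD2 after DSF in Huh7 cells and the line differences of CRELD2 and HERPUD1 for both drugs kept direction and call in all alternatives run. So did PDIA4 after 5-FU in Huh1 cells, DNAJC3 and CRELD2 after 5-FU in Huh7 cells and the DNAJC3 line difference for 5-FU. For DSF against 5-FU the same held for HSPA5, HSP90B1, DNAJC3 and HERPUD1 in Huh1 cells and for HSP90B1 in Huh7 cells. Between controls it held for HSP90B1, DNAJC3, PDIA4, HERPUD1 and HYOU1. The number of the 10 genes called went from 7 to 4 for DSF in Huh1 cells, from 7 to 3 for DSF in Huh7 cells and from 4 to 2 for the DSF line difference on the spike-in scale, and from 4 to 7 for the last with array weights. Over the analyses without 1 array the counts ran from 5 to 8 and 5 to 8 for DSF in Huh1 and Huh7 cells, 6 to 7 and 7 to 10 for 5-FU, 8 to 9 and 9 to 10 for DSF against 5-FU, 3 to 5 and 3 to 6 for the DSF and 5-FU line differences and 7 to 8 for the controls.

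Directions turned as follows, and the cause was not tested. With spike-in scaling, 5-FU in Huh1 cells gave 0.034 (HSPA5), 0.62 (DNAJC3), 0.75 (HERPUD1), 0.20 (SDF2L1) and 0.10 (HYOU1), and in Huh7 cells 0.60 (HSPA5), 0.79 (XBP1), 0.29 (SDF2L1) and 0.56 (HYOU1). DSF against 5-FU on that scale gave -0.063 (DNAJB9), -0.66 (XBP1) and -0.43 (SDF2L1) in Huh1 cells. In Huh7 cells it gave -0.46 (HSPA5), -0.61 (DNAJB9), -0.83 (DNAJC3), -0.97 (XBP1), -0.33 (PDIA4), -0.13 (SDF2L1), -0.27 (HYOU1) and -0.34 (CRELD2). The line differences were -0.076 (PDIA4) and -0.057 (HYOU1) for DSF and 0.043 (HSP90B1) and 0.087 (SDF2L1) for 5-FU. With median scaling DSF in Huh1 cells gave -0.073 (HSP90B1) and -0.084 (XBP1), DSF against 5-FU -0.12 (XBP1, Huh1), the DSF line difference 0.068 (HSPA5), 0.121 (DNAJB9), 0.021 (DNAJC3) and 0.055 (XBP1), and the control difference -0.14 (CRELD2). With quantile scaling XBP1 gave 0.14 for 5-FU in Huh7 cells, -0.23 and -0.22 for DSF against 5-FU in Huh1 and Huh7 cells and 0.014 for the controls, and the 5-FU line difference gave 0.008 (HSP90B1), -0.040 (DNAJB9) and 0.020 (SDF2L1). Array weights gave -0.064, -0.098 and 0.026 for XBP1 (DSF and 5-FU in Huh1 cells, DSF line difference). The normexp correction, chosen after seeing the data, gave 0.014 for XBP1 after DSF in Huh7 cells and 0.007 for the DNAJB9 DSF line difference. The slide gave 0.063 as a fixed and 0.002 as a random block for that XBP1 value, and as a fixed block 0.10 for the DNAJB9 DSF line difference and -0.082 for CRELD2 between controls.

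Without 1 array, signs turned for values near 0 only. XBP1 ran from -0.12 to 0.21 and from -0.047 to 0.014 for DSF in Huh1 and Huh7 cells, from -0.15 to 0.18 for 5-FU in Huh1 cells, from -0.22 to 0.11 for the DSF line difference and from -0.33 to 0.00 between controls. HERPUD1 ran from -0.148 to 0.045 for 5-FU in Huh1 cells, CRELD2 from -0.024 to 0.059 between controls, DNAJB9 from -0.106 to 0.061 and from -0.037 to 0.141 for the DSF and 5-FU line differences, and SDF2L1 from -0.20 to 0.11 for the 5-FU line difference.

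Over all 29894 tested probes the split of higher to lower calls also moved. In Huh1 cells it was 7154 to 6066 for DSF, and 4750 to 9635 with median and 7081 to 2419 with spike-in scaling. In Huh7 cells it was 8174 to 5801 for DSF, and 3241 to 6123 with spike-in scaling. For 5-FU it was 6642 to 7761 and 8173 to 8890, and 22339 to 367 and 22962 to 1035 with spike-in scaling. For DSF against 5-FU it was 8565 to 6148 in Huh1 cells, and 6845 to 7327 with quantile, 5517 to 8054 with median and 1382 to 18725 with spike-in scaling, and in Huh7 cells it was 10632 to 7464, and 826 to 24196 with spike-in scaling. For the DSF line difference it was 6305 to 5746, and 8866 to 4079 with median and 1431 to 6938 with spike-in scaling, and for the 5-FU line difference 5606 to 5329, and 4622 to 2264 with spike-in scaling. The replicate block left 89 of the 90 results as they were and ended the call of DNAJC3 after 5-FU in Huh1 cells. Deviations of same-numbered arrays correlated between -0.093 and 0.024 over 18 pairs, and the main analysis did not pair arrays by number. With 3 arrays per group these values cannot show whether same-numbered arrays came from the same experiment. With 3 arrays per group and 2 of 3 Huh7 DSF arrays alone on a slide, small Huh7 DSF changes were the least secure. With the slide as a fixed block all Huh7 DSF values rested on 1 array. A normexp correction of the mean signals was not run, since the files used here hold median signals.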
